A study of Mus musculus with 74 samples.

Results

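The data are those of 8 complement genes that the liver expresses, *C3*, *Cfb*, *Hc*, *C6*, *C8a*, *C8b*, *C8g* and *C9*. Their rows were taken by symbol, with no threshold on a value, and the set of genes was drawn up with earlier results of these data known. All 8 are among the 14583 genes of the RNA-seq table. In the 13 ChIP-seq comparisons they own the rows (peak regions) that the deposited tables assign to them by the nearest transcription start site (TSS), between 22 of 27842 rows for GPS2 in *Pparα* KO liver and 95 of 115042 rows for NCOR in *Pparα* KO liver. *Cfb* has no row in the H3K27ac and H3K4me3 tables, where its position lies in a wide region named for a neighbour.

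The study asked how the corepressor subunit GPS2, its partners NCOR and SMRT, and the nuclear receptor PPARα act in liver. All groups were livers of mice with a C57BL/6 background at a labelled age of 8 to 12 weeks. The deposited names of the H3K27ac and H3K4me3 libraries of the *Gps2* line hold the word fed. Names of the other libraries give no feeding state. The study gives a chow diet for the RNA-seq mice. *Gps2* LKO mice carried *Gps2* flox/flox and the Alb-Cre transgene, which the albumin promoter drives in hepatocytes, and their WT were *Gps2* flox/flox mice of the same breedings without Cre, so both groups carried the floxed allele. *Ncor* LKO and *Smrt* LKO mice lacked *Ncor* or *Smrt* in the liver, each with WT of its own line, and *Pparα* KO mice lacked the receptor in all cells of the body. RNA-seq had 4 WT and 4 *Gps2* LKO libraries. In the *Gps2* line, H3K27ac and H3K4me3 had 2 libraries per genotype, NCOR and PPARα 3, and GPS2 and RNA polymerase II (Pol II) 1. In the *Ncor* line, H3K27ac, GPS2 and PPARα had 3 libraries per genotype, as did H3K27ac in the *Smrt* line. In the *Pparα* line, GPS2 and NCOR had 3 libraries per genotype and PPARα 2. In units of 1000000, RNA-seq libraries held 13.2 to 20.1 counted reads and ChIP-seq libraries 7.9 to 46.1 tags (aligned reads). *Gps2* mRNA was at 16.0 ± 0.72 CPM (read counts per 1000000 reads, with the TMM scaling of edgeR) in WT and 11.2 ± 1.92 in LKO (SD, n = 4 each; log2 fold change -0.53, SE 0.112, adjusted p = 0.002095, edgeR).

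Complement is a set of plasma proteins, made mainly by hepatocytes, that tag microbes and damaged cells for removal and can pierce their membranes. Activation by the classical, lectin or alternative pathway converges on enzyme complexes, the convertases, that cleave C3 and then C5. The larger fragment of C5 binds C6 and C7, C8 joins the complex at the membrane, and copies of C9 close the pore, which is the membrane attack complex. Several complement genes respond to inflammatory signals as part of the acute phase response of the liver.

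The DNA under the GPS2 peaks of WT liver is shown first, because these sites lost nearly all GPS2 tags in *Gps2* LKO liver and the promoter ones lie just upstream of genes whose mRNA moved in opposite directions. All sequences are from mm9, 5′ to 3′ on the strand of the gene. The *C3* peak lies at chr17:57367609-57367745 on the minus strand, centred 118 bases upstream of the TSS, outside annotated exons, and no letters are in capitals because none of the motifs searched was in it:

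*C3* -118: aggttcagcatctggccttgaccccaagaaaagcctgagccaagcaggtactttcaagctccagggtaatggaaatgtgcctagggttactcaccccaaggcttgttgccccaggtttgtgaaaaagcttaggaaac

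At the *Cfb* promoter, where the peak overlaps exons of neighbouring transcripts, short stretches at chr17:34999573-34999602 and chr17:34999488-34999517 on the minus strand are shown. Capitals mark a match to the NF-κB motif searched (GGGA and CC with 4 bases of any kind between them), on the other strand, in the first stretch, and a match to TTCNNNGAA, the STAT motif, overlapping AGGTCA, the hexamer that nuclear receptors bind, in the second:

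*Cfb* -75, first stretch: tttcacacGGAATTTCCCagttatgtaatt

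*Cfb* -75, second stretch: ggccaggaagaTTCCAGGAAGGTCAgagtc

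For the terminal genes *C9* (chr15:6395204-6395326, plus strand), *C8b* (chr4:104438807-104438921, plus strand) and *C6* (chr15:4677108-4677174, plus strand), the bases of the promoter peak upstream of the TSS are given. Capitals mark TTGCNNAA, the C/EBP motif, in *C9* and AGGTCA, read on the other strand, in *C8b*, and the *C6* stretch has no match, while its whole peak holds 1 AGGTCA:

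*C9* -61: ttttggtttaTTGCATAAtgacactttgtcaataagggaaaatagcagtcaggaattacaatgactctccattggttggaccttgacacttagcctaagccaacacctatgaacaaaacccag

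*C8b* -47: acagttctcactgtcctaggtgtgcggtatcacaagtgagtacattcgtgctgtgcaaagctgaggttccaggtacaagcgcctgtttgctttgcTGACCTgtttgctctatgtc

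*C6* -34: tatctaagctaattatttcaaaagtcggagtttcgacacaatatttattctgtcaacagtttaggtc

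Distal peaks are shown for *C6* at chr15:4628676-4628812 (plus strand) and for *Hc* at chr2:34919302-34919438 (minus strand). The *C6* peak lies inside the H3K27ac region that fell in *Ncor* LKO liver. At the *Hc* site PPARα and GPS2 peaks coincide, as they also do at the promoter peaks shown above. Neither distal peak holds one of the motifs searched:

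*C6* -48466: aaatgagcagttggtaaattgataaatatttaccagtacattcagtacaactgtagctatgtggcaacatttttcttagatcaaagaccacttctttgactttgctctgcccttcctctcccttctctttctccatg

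*Hc* -2409: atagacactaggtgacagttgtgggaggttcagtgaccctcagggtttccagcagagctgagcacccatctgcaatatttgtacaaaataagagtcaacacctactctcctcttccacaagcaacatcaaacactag

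Searched on both strands, AGGTCA was in 18 of the 42 GPS2 peaks of the complement genes (42.9%) and in 23.9% of all 48910 GPS2 peaks searched. TTGCNNAA was in 7 (16.7%, against 13.2% of all), TTCNNNGAA in 5 (11.9% against 5.16%) and the NF-κB motif in 3 (7.14% against 8.19%). In promoter windows from RefSeq (GRCm38.p6, 300 bases, 8 windows for 7 members with *Cfb* not listed), AGGTCA was in 3 (37.5%, against 16.3% of 32851 windows), TTGCNNAA in 2 (25% against 10.8%), TTCNNNGAA in 1 (12.5% against 8.3%) and the NF-κB motif in 1 (12.5% against 20.7%). The window with the NF-κB motif was that of *C3*, which also held AGGTCA and TTGCNNAA, though the *C3* peak shown above held none of them. A match describes letters only, and a window without one says nothing of the factor.

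In the liver transcriptome, the members moved in both directions. The mRNAs of *Hc*, *C6*, *C8a*, *C8b* and *C9*, which act between C5 and the pore, were lower in *Gps2* LKO liver, at 0.4728 (*C6*) to 0.5713 (*C9*) times the WT level, while *C3* and *Cfb*, which act at the C3 convertase, and *C8g*, a chain of C8 and so also of the pore complex, were 1.141 to 1.224 times higher. Of the 8 members, 5 fell and 3 rose (edgeR's quasi-likelihood test, adjusted p below 0.05). Among 12220 genes tested, 44.8% passed that test, 21.4% lower and 23.4% higher, so being called is itself common in this comparison. A fall of at least 2-fold was rarer, at 1.38% of genes, and *C6* and *C8a* were among these. The set was drawn up with earlier results of these data known, so this share and the medians that follow are description only. The median log2 fold change was -0.84 over the members and 0.03 over all genes tested. The groups of 4 libraries did not overlap for any of the 8 members, which held for 39.1% of genes. In bulk tissue, fewer cells of a type and less RNA per cell cannot be told apart. Nothing in the labels ties each library to a separate animal, so the p-values measure the spread between these libraries.

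**Figure D1:**
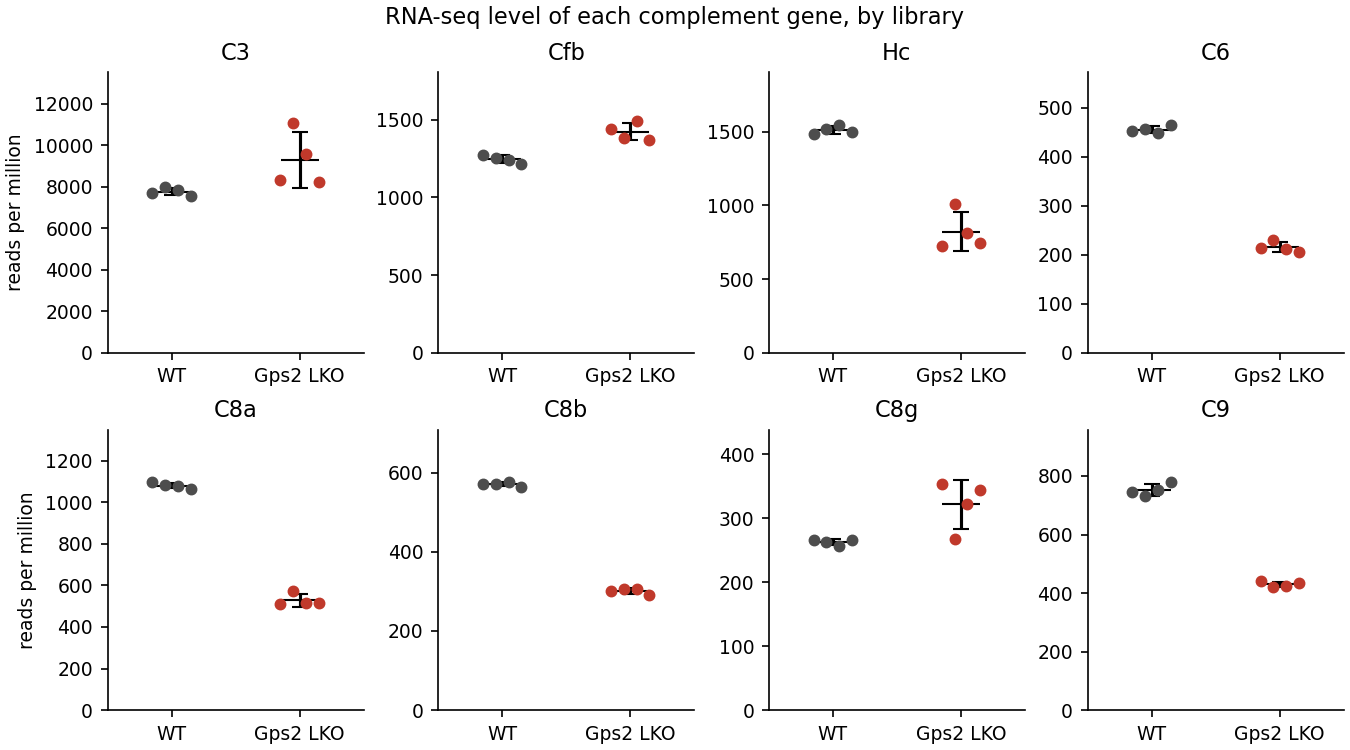
RNA-seq level of each complement gene in CPM (y axes from 0), with 1 point per library for 4 WT and 4 *Gps2* LKO livers and bars for mean ± SD. The LKO points of *Hc*, *C6*, *C8a*, *C8b* and *C9* all lie below every WT point, and those of *C3*, *Cfb* and *C8g* all lie above.

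*C3* (Entrez 12266, chr17:57343397-57367559 in mm9, minus strand) encodes the component that all activation pathways cleave. It was at 7684, 7961, 7848 and 7556 CPM in WT and 8336, 11080, 9557 and 8205 in LKO. The WT libraries lay close together, the LKO libraries were spread over a wider range, and the groups did not overlap. The change was small, with a log2 fold change of 0.26 (SE 0.083, adjusted p = 0.02169). The call was lost without WT library 1 (0.25), 3 (0.26) or 4 (0.25), without LKO library 3 (0.25) and with DESeq2 (0.23), and without LKO library 2 the change was 0.14. The adjusted p ran from 4.081e-07 to 0.0628 over the alternatives tried.

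*Cfb* (Entrez 14962, chr17:34993319-34999463, minus strand) encodes factor B, which supplies the catalytic part of the convertase of the alternative pathway. WT libraries had 1275, 1255, 1242 and 1212 CPM, and LKO libraries 1441, 1384, 1490 and 1370. All LKO libraries were above all WT libraries by a narrow margin. The log2 fold change was 0.19 (SE 0.0514, adjusted p = 0.009218).

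*Hc* (Entrez 15139, chr2:34838851-34916958, minus strand), the mouse gene of C5, had 1484, 1520, 1543 and 1497 CPM in WT and 722.5, 1012, 814.6 and 742.4 in LKO. LKO library 2 was the highest of its group and still well below the lowest WT library. The log2 fold change was -0.88 (SE 0.0889, adjusted p = 5.185e-06).

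*C6* (Entrez 12274, chr15:4677175-4765456, plus strand), whose product binds the C5 fragment, had 453, 457.1, 448.6 and 464.4 CPM in WT and 213.2, 229.8, 213.1 and 206 in LKO. Libraries within each genotype differed little beside the gap between genotypes. *C6* fell by 1.08 on the log2 scale (SE 0.0546, adjusted p = 3.885e-09), the lowest value among the 8 members.

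The genes of the 3 chains of C8 did not move together. *C8a* (Entrez 230558, chr4:104488284-104549003, minus strand) encodes the alpha chain, which enters the membrane. It was at 1095, 1082, 1079 and 1065 CPM in WT and 509.1, 574.2, 515.1 and 515.1 in LKO. It fell by 1.03 (log2, SE 0.0555, adjusted p = 7.746e-09), with no overlap. *C8b* (Entrez 110382, chr4:104438922-104477153, plus strand), its neighbour, encodes the beta chain, which binds the growing complex. It was at 571, 571.1, 576.3 and 563.7 CPM in WT and 300.6, 306.2, 305.9 and 291.6 in LKO, a log2 fold change of -0.92 (SE 0.05004, adjusted p = 8.516e-09). *C8g* (Entrez 69379, chr2:25354171-25357239, minus strand) encodes the gamma chain, a lipocalin joined to the alpha chain. It had 265.8, 263.5, 256.4 and 265.6 CPM in WT and 353.2, 267, 322 and 344.6 in LKO. LKO library 2 only just cleared the WT range. The log2 fold change of *C8g* was 0.29 (SE 0.0777, adjusted p = 0.008545), and it was 0.04 (adjusted p = 0.4398) once the trend of fold change with transcript length was removed.

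*C9* (Entrez 12279, chr15:6395327-6448744, plus strand), whose product polymerizes into the pore, had 745.6, 732, 750.3 and 780.8 CPM in WT and 439.7, 419.3, 425.4 and 434.3 in LKO. Both groups were tight and far apart. The log2 fold change was -0.81 (SE 0.0508, adjusted p = 4.343e-08).

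A second fit removed the trend of fold change with transcript length over all genes. It gave 0.41 for *C3*, 0.16 for *Cfb*, -0.71 for *Hc*, -1.10 for *C6*, -0.99 for *C8a*, -1.01 for *C8b* and -0.97 for *C9*. The 5 falls and the rises of *C3* and *Cfb* remained called, and *C8g* did not. LKO library 2 had the highest *C3*, *Hc*, *C6* and *C8a* and the lowest *C8g* of its group, and pairs of LKO libraries with it differed more than the other LKO pairs (mean chi-square of 19.81 to 29.11 per gene against 1.53 to 9.87). The part of that library in the spread of these genes was not tested.

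**Figure D2:**
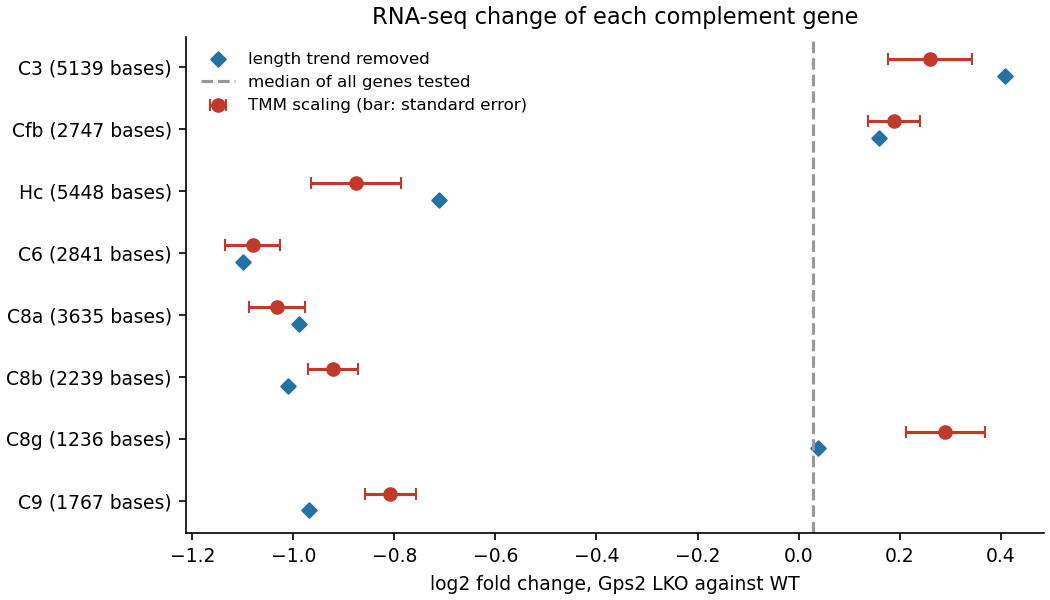
Log2 fold change of each complement gene in *Gps2* LKO against WT liver (x axis; n = 4 libraries per group), with red points for TMM scaling and bars for the standard error, and blue diamonds for the fit without the length trend. *C3* and *Cfb* lie right of the median of all genes (0.03) in both fits, *C8g* reaches it without the trend (0.04), and the other 5 genes lie between -1.10 and -0.71 in both.

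Compared per length, in CPM per kilobase of exon (RPKM), the order of the levels changed between genotypes. In WT, *C3* (1510 ± 34.76, SD, n = 4) led, followed by *Cfb* (453.6 ± 9.61) and *C9* (425.7 ± 11.65), whose libraries overlapped by 1 library each, so their order is not beyond the spread. *C8a* (297.2 ± 3.396), *Hc* (277.4 ± 4.715), *C8b* (254.8 ± 2.321), *C8g* (212.7 ± 3.581) and *C6* (160.4 ± 2.353) followed, each apart from the next by more than its SD. In LKO liver, *C3* (1808 ± 259.9) and *Cfb* (517.3 ± 20.01) still led, and *C6* (75.86 ± 3.55) was still last. *C8g* (260.3 ± 31.35) stood beside *C9* (243.2 ± 5.142), and *Hc* (151.1 ± 24.27), *C8a* (145.4 ± 8.446) and *C8b* (134.5 ± 3.036) could not be ordered beyond their spread. Thus the mRNA of the gamma chain was the lowest of the 3 C8 chains in WT and the highest in LKO.

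As a description, the gene most alike to each member was sought among 8561 genes by Pearson's r over the 8 libraries, after the mean of each genotype was subtracted. These were *Ptprf* for *C3* (0.999), *Ppp1r37* for *Cfb* (0.984), *F5*, a coagulation factor, for *Hc* (0.999), *Setd7* for *C6* (0.993), *Brpf3* for *C8a* (0.997), *Pdcd11* for *C8b* (0.987), *Mrpl52* for *C8g* (0.996) and *Tgds* for *C9* (0.971). Within genotypes, r was 0.971 for *Hc* and *C3* and -0.998 for *Hc* and *C8g*. WT libraries of these genes varied less than LKO libraries, and LKO library 2 had the highest *C3* and *Hc* and the lowest *C8g* of its group. Exon lengths were 5448 bases for *Hc*, 5139 for *C3* and 1236 for *C8g*, and the length trend was not removed here. The part of that library and of length in these r was not tested. The points share libraries and their depth.

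Among other complement components, regulators and receptors, 36 of 45 listed genes could be tested, and 12 rose, 11 fell and 13 were not called, with a median log2 fold change of -0.07. Of all genes tested, 23.4% rose and 21.4% fell. *Mbl2*, which encodes a mannose-binding lectin that starts the lectin pathway, rose from 347.6 ± 13.97 to 861.3 ± 128.9 CPM (1.31, SE 0.0931, adjusted p = 1.509e-07). *Colec11*, another collectin of that pathway, rose by 0.97 (adjusted p = 5.264e-06), *C1qa*, a macrophage-made chain of C1q, by 0.86 (adjusted p = 3.361e-06), and *Cfp*, the gene of properdin, which stabilizes the alternative convertase, by 0.84 (adjusted p = 0.0001609). *Masp1*, a protease of the lectin pathway, fell from 109.6 ± 5.589 to 60.05 ± 24.83 CPM (-0.86, adjusted p = 0.003793), with LKO libraries at 40.68, 93.94, 63.28 and 42.3. *C1ra*, a protease of the C1 complex, fell by 0.43 (adjusted p = 0.0002643). *C4a* fell by 3.01 (adjusted p = 1.489e-10) and *C4b*, which is nearly identical to it, by 0.49 (adjusted p = 0.0003719), so both values are uncertain where the counting split reads between the copies. Among 18 acute phase genes, 5 rose, 6 fell and 7 were not called, with a median of -0.03, beside the same 23.4% and 21.4% of all genes.

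Markers of other liver cells moved as well, where 23.4% of all genes tested were called higher and 21.4% lower. Of the macrophage markers 6 of 7 were called higher, with a summed level of 127.1 to 132.2 CPM in WT and 170.8 to 193.9 in LKO, and 5 of 5 stellate cell markers rose, from 134.3 to 139.9 up to 243.1 to 256.9. Of the endothelial markers 2 of 5 were higher (104.3 to 110.6 against 114.8 to 126.1), and of the cholangiocyte markers 2 of 4 (9.103 to 11.53 against 12.5 to 15.06). Hepatocyte markers, which define the labelled tissue, were high in every library, at 107500 to 111500 summed CPM in WT and 145200 to 173000 in LKO, with 3 of 6 higher and 0 lower. *Alb* made up most of that sum (83470 ± 1794 CPM in WT and 129500 ± 9340 in LKO; SD, n = 4 each). *Apoa1*, *Cps1* and *Serpina1c* were at 1.171, 1.083 and 1.082 times the WT level and were not called. The 1 neutrophil marker tested was not called (3.666 to 5.602 against 5.349 to 5.947), and the lymphocyte markers, with none tested, summed to 0.6534 to 0.992 against 0.9287 to 2.057. No marker of these lists was without reads over the table. The part of these cells in the levels of the complement genes was not tested.

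GPS2 occupied regions at each of the 8 genes in WT liver, and the tags there were nearly gone in *Gps2* LKO liver. With 1 library per genotype there was no replicate check and no test, so values are tags per 10000000 with exact Poisson intervals (95%) that cover counting error only. All 42 rows of the complement genes fell past 2-fold, as did 99.6% of all rows, so the share is that of the background. With the tags in the rows of the table as scaling, 30 of the 42 rows did. The *C3* promoter peak had 93 tags in WT, or 60.0 (48.4 to 73.5), and 0 in LKO, at least 29.6-fold lower against a floor of 3 tags. The *Cfb* promoter peak had 75 tags, or 48.4 (38.1 to 60.7), and 0 in LKO, at least 23.9-fold lower.

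The peaks at the genes of the membrane attack complex were smaller. *C8g*, at +200 in WT, had 51 tags, or 32.9 (24.5 to 43.3), against 3 tags in LKO. *C6*, at -34, and *C9*, at -61, each had 22 tags in WT and 2 in LKO, and *C8b*, at -47, had 16 and 1. *C8a* and *C8b* had stronger peaks away from the start site, with 43 tags at +37860 of *C8a* (1 in LKO) and 47 at +13300 of *C8b* (0 in LKO). These genes are neighbours, so rows named for one by its start site may lie in the other. The distal *C6* peak at -48466 had 11 tags and 0 in LKO, and the *Hc* peak at -2409 had 22 and 1. Summed over the rows of a gene, WT had 138.7 tags per 10000000 at *C3*, 110.3 at *Cfb*, 142.6 at *C8b*, 103.9 at *C8a*, 62.0 at *Hc*, 56.8 at *C6*, 34.8 at *C9* and 32.9 at *C8g*. Genes that fell and genes that rose thus both had GPS2 in WT liver.

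Pol II at the start sites of the genes whose mRNA fell was not lower by a like amount, with *C9* the 1 gene whose Pol II tags were fewer in LKO. Of 23 Pol II rows, 4 were higher and 1 lower past 2-fold, where 13.7% of all rows passed that fold (7.72% higher and 5.94% lower), and all 5 rested on at most 16 tags. At the TSS rows, *C6* had 63 tags in WT (54.05 per 10000000; 41.5 to 69.2) and 85 in LKO (71.47; 57.1 to 88.4), while its mRNA was lower. *C8g* had 74.64 (59.8 to 92.1) in WT and 101.7 (84.4 to 121.6) in LKO, and *C9* had 95.22 (78.3 to 114.7) and 69.79 (55.6 to 86.5), so the intervals overlapped for all 3. *C3* (158.7 and 163.1), *C8a* (53.19 and 55.49), *C8b* (20.59 and 24.38) and *Hc* (78.93 and 79.04) were close in both libraries, and *Cfb* had 127.8 and 143.8. A change in Pol II as large as the fall in *Hc*, *C8a* or *C8b* mRNA was not seen in these 2 libraries.

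**Figure D3:**
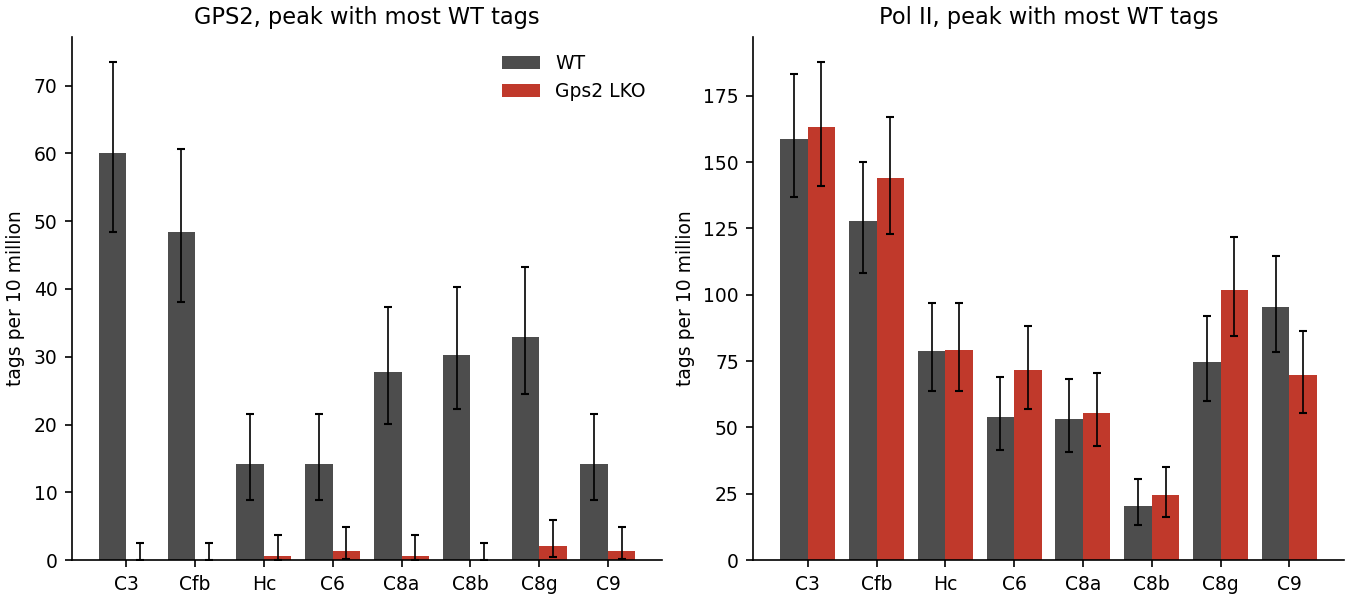
Tags per 10000000 (y axes from 0) for GPS2 (left) and Pol II (right) at the peak of each complement gene with the most WT tags, with 1 WT and 1 *Gps2* LKO library and exact Poisson intervals (95%). The GPS2 bars of LKO are near 0 for all 8 genes, while each Pol II interval of LKO overlaps that of WT.

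Histone marks of active promoters and enhancers were compared next. H3K27ac in *Gps2* LKO liver, with 2 libraries per genotype, had 19 rows of the complement genes that lay in H3K27ac peaks, and 0 of them were called, where 1.42% of all rows were (5 had an unadjusted p below 0.05, and DESeq2 called 0). The median log2 fold change was -0.08 over the 19 rows and 0.06 over all rows. The main *C6* row, at +2799, had 813.4 and 697.9 tags per 10000000 in WT and 867.5 and 588.2 in LKO (-0.05), and that of *C8a*, at +48008, had 3087 and 2618 against 2786 and 2149 (-0.21). For *C3*, at +3683, the values were 1740 and 1354 against 2191 and 1512 (0.26, adjusted p = 0.5827). *C8b*, at +800, had 683.9 and 585.2 against 719.3 and 306.7 (-0.31). In each of these rows library 1 was above library 2 in both genotypes, and the groups overlapped.

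*C8g* was the main H3K27ac row whose groups did not overlap, with 571.6 and 538.9 in WT against 631.7 and 591.3 in LKO (0.14, adjusted p = 0.5091). *C8a* -15455, a small row, was apart too (25.14 ± 5.707 against 40.97 ± 7.504; SD, n = 2 each), and so were 30.1% of all rows in that direction. The rows at *Hc* -7999 (124.3 ± 23.7 against 76.98 ± 35.85; -0.70, adjusted p = 0.3078) and *Hc* -13473 (205.1 ± 37.79 against 127.7 ± 51.89; -0.69, adjusted p = 0.2487) were lower without overlap, as was *C8b* -40020 (23.22 ± 2.311 against 13.56 ± 4.766; SD, n = 2 each), while 14.6% of all rows were. Without LKO library 1, 8 member rows were called, beside 3006 of all 47108 rows, and without LKO library 2, 2 were, beside 1696.

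H3K4me3, a mark of promoters, was called at 0 of 7 rows (0.916% of all rows; 0 with an unadjusted p below 0.05, and DESeq2 called 0). *C8b* had 364.6 and 299.1 tags per 10000000 in WT and 352.9 and 155.4 in LKO (-0.39, adjusted p = 0.8081), and *C6* 829 and 764.4 against 837.9 and 564.2 (-0.18). *C8g* had 972.7 and 862.8 against 1040 and 979.3 (0.14, adjusted p = 0.6981), without overlap, as in 27% of all rows. Without LKO library 1, 2 rows were called, beside 213 of all 22814 rows, and without LKO library 2, 1 was, beside 229. The wide region over *Cfb*, chr17:34985832-35003828, is named for *Mir6972* and covers several genes. It had 1353 ± 111 H3K27ac tags in WT and 1411 ± 25.5 in LKO (0.06, adjusted p = 0.824), and 0.07 for H3K4me3 (adjusted p = 0.936).

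NCOR, the corepressor that GPS2 partners, was called at 0 of 53 rows in *Gps2* LKO liver, where 0.0173% of all rows were called (2 had an unadjusted p below 0.05, and DESeq2 called 0). The *C3* peak at -106 had 129.8, 115.5 and 85.22 tags per 10000000 in WT and 92.93, 124.9 and 46.1 in LKO (-0.32, SE 0.403). At *Cfb* -47 the values were 140.6, 129.7 and 98.55 against 120.2, 124.4 and 74.31 (-0.21), and at *C8g* +166 they were 70.53, 87.57 and 38.84 against 55.39, 45.23 and 24.41 (-0.65). The groups overlapped at all 3 promoters, so a change of NCOR was not seen beyond the spread of the libraries at sites where GPS2 tags were nearly gone. The adjusted p was 1 for each of these rows.

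PPARα in *Gps2* LKO liver was called higher at 1 of 65 rows, where 2.49% of all rows were called higher. The 3 WT libraries agreed within sampling noise and were counted as 1 sample (n = 1 against 3), so the spread comes from the LKO libraries alone. With each library as its own sample, 17 member rows and 37826 of all 102519 rows were called, against 1 and 2579. The called row, chr4:104542884-104543139, lies at +5992 in *C8a* and had 17.72, 23.75 and 20.29 tags per 10000000 in WT and 52.86, 37.89 and 56.87 in LKO (1.25, SE 0.375, adjusted p = 0.0419). The call was lost without WT library 1 (1.13) or LKO library 3 (1.10), under TMM scaling (0.65) and with DESeq2 (0.64). At *C3* -198, the strongest site, PPARα had 288.5, 296.4 and 268.3 tags against 401.1, 316.4 and 275 (0.21), with overlap. Sites at *C8a* +52583 (0.58, adjusted p = 0.2089), *Hc* -2391 (0.62, adjusted p = 0.1852) and *C8b* +37918 (0.63, adjusted p = 0.174) were not called. Their 3 LKO libraries exceeded every WT library, as at 25 member rows and at 46.7% of all rows. Of the 65 rows, 56 were above 0 (median 0.41, all rows 0.61), but under TMM scaling, which moved the median of all rows to 0.02, 20 were above 0 and 45 below (median -0.19).

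H3K27ac was lower in *Ncor* LKO liver at 2 regions of *C6* and at the promoter region of *C8b*. Of 39 rows, 3 were called lower and 0 higher, and 0.801% of all rows were called lower and 2.32% higher. At the *C6* promoter region (+2551, chr15:4674033-4685489), WT had 657.9, 659 and 579.5 tags per 10000000 and LKO had 354.1, 448.3 and 433.1 (-0.62, SE 0.114, adjusted p = 0.0194). The distal *C6* region (-48900, chr15:4624931-4631690), which holds the distal GPS2 peak shown above, had 343.5, 280.5 and 267 in WT and 104.7, 188.4 and 186.3 in LKO (-0.89, SE 0.204, adjusted p = 0.0445). All LKO libraries were below all WT libraries in both regions. At the *C8b* promoter (-96, chr4:104435611-104442041) the values were 510.7, 465.6 and 448.4 against 332.6, 386.8 and 312.8 (-0.47, SE 0.110, adjusted p = 0.04999), which is at the threshold. Other rows named for *C8b* were not called, with 128.7 ± 12.66 against 160.8 ± 12.57 at +11587 (0.32, adjusted p = 0.2263; SD, n = 3 each). Its row with the most tags (+54601, chr4:104484157-104502889) had 1804 ± 90.64 against 1811 ± 169.5 (0.01, adjusted p = 0.9898). That row lies past the end of *C8b* and mostly within *C8a*. It is part of the *C8b* sum over 11 rows (2687 against 2588, with overlap) and not of the *C8a* sum.

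These calls rested on few libraries. Under TMM scaling 1 of the 39 rows was called, while DESeq2 called 3, and in the main fit 15 had an unadjusted p below 0.05. No member row was called without WT library 1, WT library 2 or WT library 3, while 2 were without LKO library 1, 6 without LKO library 2 and 1 without LKO library 3. The log2 fold changes in those fits ran from -0.68 to -0.52 at *C6* +2551, from -1.03 to -0.66 at *C6* -48900 and from -0.56 to -0.40 at *C8b* -96. Over all 39 rows, 33 were below 0 (median -0.37, all rows 0.00), and 15 had all LKO libraries below all WT libraries, against 9.04% of all rows. Rows of 1 gene share its libraries and lie side by side, so they are not independent.

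No row of the other members was called in *Ncor* LKO liver. *C8a* +37529 had 1133, 1124 and 1104 against 885, 997 and 909 (-0.27, adjusted p = 0.1524), without overlap, and the sum over the 9 *C8a* rows was 1926 in WT and 1527 in LKO, also without overlap. That sum leaves out the region named *C8b* +54601, which lies mostly in *C8a* and whose groups overlapped. *C9* -996 had 1316, 1266 and 1044 against 813.6, 1174 and 1039 (-0.26, adjusted p = 0.434), and *Hc* +1252 had 1057, 939.8 and 852.8 against 736.7, 1068 and 769.5 (-0.15). The upstream *Hc* row at -13277 had 186 ± 28.76 against 117.4 ± 47.53 (-0.66, adjusted p = 0.2256), with overlap. *C3* -2039 had 1217, 1247 and 1112 against 1345, 1520 and 880.1 (0.07), and *C8g* +822 had 568.4, 500.8 and 565.4 against 587, 503.2 and 504.5 (-0.04), so both overlapped. The region over *Cfb* had 1452 ± 42 and 1331 ± 72 (-0.13, adjusted p = 0.579; SD, n = 3 each).

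In *Smrt* LKO liver 0 of 39 rows were called for H3K27ac, as for all rows (0%), with 1 member row at an unadjusted p below 0.05 and 0 called by DESeq2. *C6* +2551 had 173.4, 254.7 and 182.5 in WT and 244.7, 206.2 and 198.4 in LKO (0.09), and *C9* -996 had 657.6, 609.5 and 643.5 against 614.5, 513.6 and 407 (-0.32, adjusted p = 0.8345). *C8a* +37529 had 608, 615.2 and 555.8 against 608.8, 595.3 and 572.9, so the groups overlapped. The difference between the *Ncor* and the *Smrt* effect was tested in 1 model, and 0 of 39 rows were called (6 with an unadjusted p below 0.05, 0 by DESeq2), where 0.33% of all rows were higher and 0.0959% lower. It was closest to the threshold at *C6* +2551 (-0.71, SE 0.202, adjusted p = 0.1608), so a difference between the effects of both corepressors was not shown. The lines also differed in sex-linked signal and in WT level, with 297 and 5.22 tags at the distal *C6* region, as given below. Corepressor, sex-linked signal and line thus cannot be told apart in this test.

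H3K27ac at the complement genes also differed between the WT livers of both lines, a comparison chosen after the values were seen. H3K27ac was higher in WT of the *Ncor* line than in WT of the *Smrt* line at 31 of 39 rows, where 9.53% of all rows were, and lower at 1 row, that of *C3* (1192 ± 71.2 against 1501 ± 51.3; -0.33, SE 0.0718, adjusted p = 0.01032), where 13.1% were. The median log2 difference was 1.62 over the 39 rows and -0.07 over all rows. Of the 39 rows, 9 are named for *C8a*, 11 for its neighbour *C8b* and 7 for *C6*, so they are not independent. At the distal *C6* region the levels were 297 ± 40.8 and 5.22 ± 0.814 (5.81, SE 0.173, adjusted p = 8.284e-07), and at *C6* +2551 they were 632 ± 45.6 and 203.5 ± 44.6 (1.63, adjusted p = 9.745e-05). *Hc* -13277 had 186 ± 28.8 and 32.7 ± 3.92 (2.51, adjusted p = 1.613e-05), and *C8a* +37529 (0.92, adjusted p = 5.348e-05), *C9* -996 (0.92, adjusted p = 0.000242) and *C8b* -96 (0.93, adjusted p = 0.02563) were higher too. *C8g* +822 was not called (-0.08, adjusted p = 0.6949; SD, n = 3 each).

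Summed over its rows, *C6* had 1281, 1213 and 1060 tags per 10000000 in the *Ncor* line and 210.7, 287.1 and 199.9 in the *Smrt* line, a ratio of 5.09. The ratio was 1.96 for *C8a*, 1.89 for *C9*, 1.42 for *Hc*, 1.39 for *C8b*, 0.95 for *C8g* and 0.79 for *C3*. The *C8b* sum, and not that of *C8a*, holds the region at *C8b* +54601, which lies mostly in *C8a* (1804 and 1440 in these lines). The 6 H3K27ac libraries of the *Ncor* line had 306 to 370.8 tags per 10000000 in rows of the Y chromosome and 2.93 to 4.92 at *Xist*, and the 6 of the *Smrt* line had 0 and 249.3 to 289.1. Line and this sex-linked signal go together in every library, so they cannot be told apart. The methods of the study give its mice as male. The *Smrt* line signal, at *Xist* and not on the Y chromosome, does not match that.

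**Figure D4:**
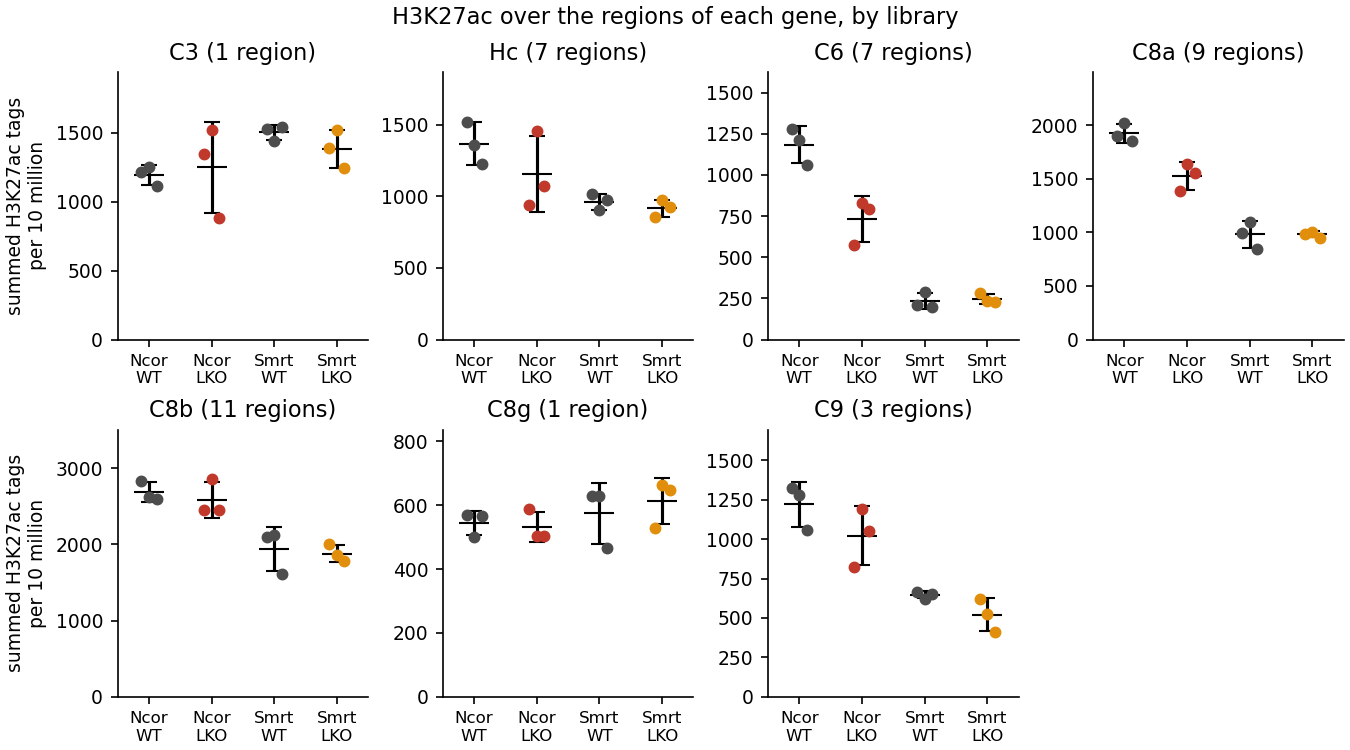
H3K27ac tags per 10000000 summed over the regions of each complement gene (y axes from 0), with 1 point per library for WT and LKO livers of the *Ncor* and *Smrt* lines (n = 3 each) and bars for mean ± SD. Regions are assigned by the nearest start site, so the *C8b* sum includes a large region that lies mostly in *C8a*. *C6* is lower in *Ncor* LKO than in its WT and far lower in both *Smrt* groups, while *C3* and *C8g* overlap between the genotypes of each line.

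GPS2 in *Ncor* LKO liver was called at 0 of 48 rows, where 0.0338% of all rows were called, although 19 member rows had an unadjusted p below 0.05 and DESeq2 called 1. The *C3* peak at -116 had 106.7, 112.3 and 37.51 tags per 10000000 in WT and 34.99, 41.93 and 32.72 in LKO (-1.22, SE 0.604, adjusted p = 0.136). *C8g* +220 had 34.26, 30.77 and 12.33 against 8.378, 6.496 and 3.636 (-2.04, adjusted p = 0.07606), and *Hc* -2397 had 18.24, 18.29 and 9.646 against 3.45, 7.086 and 5.714 (-1.50, adjusted p = 0.107). WT library 3 was the lowest of its group in each of these peaks, and without it 33 of 48 rows were called, as were 33472 of all 56278 rows. The genotypes were apart, with LKO lower, at 14 rows and at 26.6% of all rows. With total tags as scaling 46 of 48 rows were below 0 (median -1.28, all rows -1.12), and under TMM, which moved the median of all rows to -0.04, 32 were below 0 (median -0.20). PPARα in *Ncor* LKO liver was called at 0 of 66 rows (0.196% of all rows; 2 had an unadjusted p below 0.05, DESeq2 called 0), with 33 rows on each side of 0. Under TMM scaling, which moved the median of all rows from 0.10 to -0.01, 44 of these were below 0.

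In *Pparα* KO liver, the PPARα antibody lost tags at the complement genes as it did elsewhere. Of 47 rows 14 were called lower, where 27.6% of all rows were, so the share is near the background. At *C3* -170 WT had 31.85 and 33.65 tags per 10000000 and KO had 2.06 and 4.398 (-3.32, SE 0.376, adjusted p = 1.899e-05). *Hc* -2384 had 16.28 and 20.65 against 0.6866 and 2.199 (-3.62, SE 0.546, adjusted p = 0.000183), and *Cfb* +324 had 12.03 and 13.77 against 0.6866 and 0 (-4.87, adjusted p = 0.0004472). The groups did not overlap at these sites, nor at 34 of the 47 rows in all, against 68.3% of all rows. *C6* -98 (14.16 and 21.41 against 4.12 and 6.597; -1.72, adjusted p = 0.006402), *C8g* +239 (9.202 and 17.59 against 2.06 and 1.466; -2.84, adjusted p = 0.002575), *C9* -6365 (14.16 and 19.12 against 3.433 and 2.199; -2.51, adjusted p = 0.001077) and *C8a* +52570 (15.57 and 15.3 against 4.12 and 2.932; -2.10, adjusted p = 0.00265) fell likewise. *C8b* fell at 4 sites, with -3.23 at -2283 (adjusted p = 0.001736). Without either WT library 0 member rows were called, and DESeq2 called 0. The median was -1.59 over the 47 rows, of which all were below 0, and -1.68 over all rows. Under TMM scaling, which moved the median of all rows to -0.22, 18 rows were above 0 and 29 below.

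GPS2 in *Pparα* KO liver was called at 0 of 22 rows, where 0.273% of all rows were called (6 had an unadjusted p below 0.05, and DESeq2 called 0). The *C3* peak at -204 had 42.32, 32.5 and 86.96 tags per 10000000 in WT and 20.39, 18.92 and 7.932 in KO (-1.77, SE 0.525, adjusted p = 0.09347), without overlap. *Hc* -2330 had 12.49, 5.85 and 15.39 against 3.641, 3.026 and 2.885 (-1.78, adjusted p = 0.1492), and *C8g* +275 had 16.65, 10.4 and 18.47 against 8.01, 6.053 and 5.048 (-1.24, adjusted p = 0.2003), so these groups were apart too. At *Cfb* -128 they overlapped, with 21.51, 17.55 and 35.4 against 24.76, 19.67 and 8.654 (-0.48). All KO libraries were below all WT libraries at 8 of 22 rows, and at 31.3% of all rows. The median was -1.03 over the 22 rows and -0.93 over all rows, and -0.08 and 0.01 under TMM scaling.

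NCOR in *Pparα* KO liver was called higher at 1 of 95 rows, where 0.136% of all rows were called higher and 2.51% lower. This distal *C6* peak (-73289, chr15:4603844-4603998) had 21.94, 14.62 and 8.426 tags per 10000000 in WT and 22.89, 41.07 and 33.45 in KO (1.11, SE 0.342, adjusted p = 0.0446). The groups were apart by a small margin, and the call was lost without WT library 2, WT library 3, KO library 1 or KO library 3, each of which left 0 calls. At *C3* -137 NCOR had 147.9, 130.7 and 168.5 against 140.6, 130.6 and 130.2 (-0.16), and at *Cfb* -57 it had 182.9, 173.7 and 212.3 against 192.1, 164.9 and 126 (-0.24). Neither was called, and the groups overlapped at both. Of 95 rows 56 were below 0 (median -0.10, all rows -0.32), but 71 were above 0 under TMM scaling, which moved the median of all rows to -0.02.

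**Figure D5:**
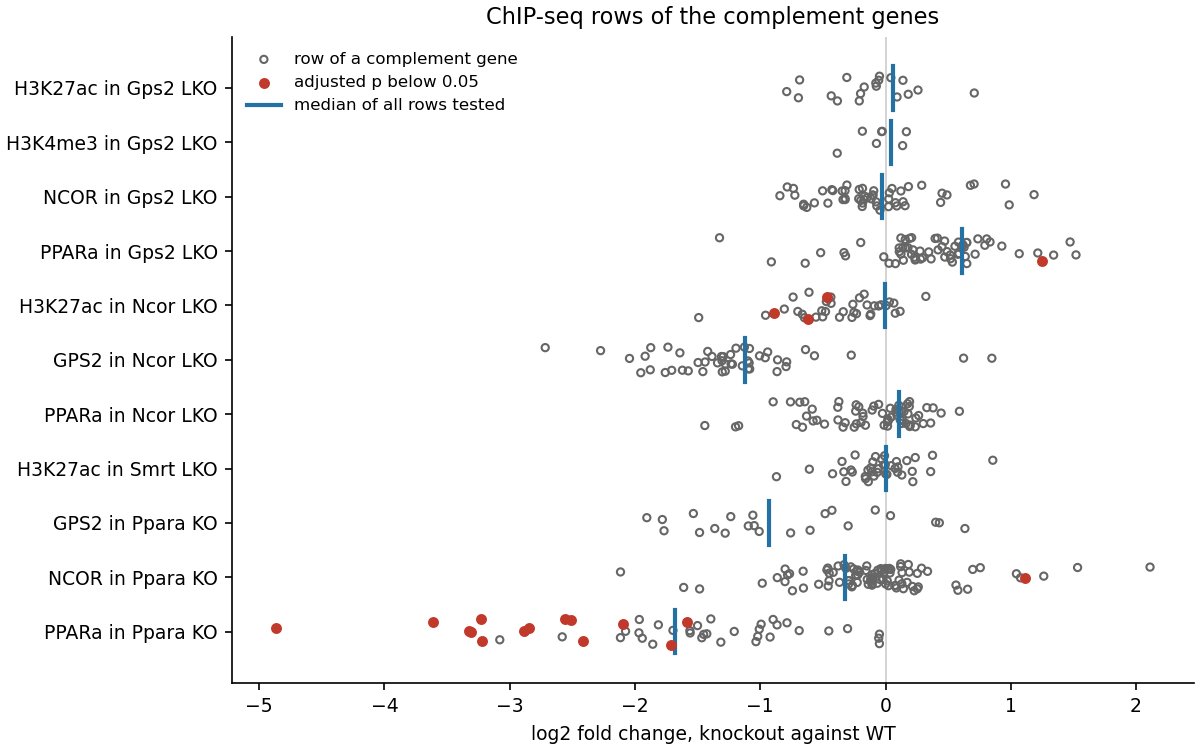
Log2 fold change (x axis) of each ChIP-seq row of the complement genes in the comparisons with a fit, with 1 circle per row, red where the adjusted p was below 0.05, and a blue bar for the median of all rows tested. Called rows were 1 higher for PPARα in *Gps2* LKO, 3 lower for H3K27ac in *Ncor* LKO, 14 lower for PPARα in *Pparα* KO and 1 higher for NCOR in *Pparα* KO.

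Several members can be followed through all tables. *C6*, the gene with the lowest mRNA ratio in *Gps2* LKO liver, had 22 GPS2 tags at its promoter in WT and log2 fold changes of H3K27ac there of -0.05 in *Gps2* LKO, -0.62 in *Ncor* LKO and 0.09 in *Smrt* LKO liver. *C3*, whose mRNA was higher, had the GPS2 promoter peak with the most tags among the members and PPARα tags that fell by 3.32 in *Pparα* KO liver, and the log2 fold change of NCOR there was -0.32 in *Gps2* LKO and -0.16 in *Pparα* KO liver, not called in either. No RNA-seq of *Ncor* LKO, *Smrt* LKO or *Pparα* KO liver was analysed here, so the mRNA values are those of the *Gps2* line alone.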

How the data were processed

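RNA was measured in 8 libraries and ChIP-seq in 64 libraries, and 2 input libraries were not used. The authors deposited raw read counts per gene and raw tag counts per peak. The submitters' processing notes name Bowtie2, HOMER, HISAT2, SAMtools and featureCounts and the builds mm9, GRCm38 and mm10, with no versions. The deposited histone peak lists carry a constant score of 1 set by the authors, and only their positions were used. The RNA-seq table also holds the authors' fold changes, p-values and FDR, which were not used. The study calls its replicates biological, and several immunoprecipitations were pooled per ChIP-seq library.

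Groups were fitted with edgeR 4.0.16 (quasi-likelihood) in R 4.3.3 over all features, with Benjamini-Hochberg adjustment (adjusted p below 0.05). RNA-seq used TMM scaling and filterByExpr. ChIP-seq was scaled to total tags, with rows of at least 1 tag. Rows of the table that both histone marks share had to overlap a peak of the mark in 2 libraries. RPKM used exon lengths of the table. DESeq2 1.42.0, other scalings and filters, a replicate block and leaving out each library were alternatives. Promoter and peak positions are mm9. The scripts were tested on simulated data with 200 changed features per comparison. They recovered 46.5% of these for PPARα in *Gps2* LKO, 26.5% for PPARα in *Pparα* KO and 74% for the difference between *Ncor* and *Smrt* LKO. In the other comparisons 86% to 99% were recovered. Few calls in the first 3 may thus miss real changes. The members and gene lists were chosen with earlier results of these data known. Named rows are, for each gene and table, that with the most WT tags, that nearest the TSS and those called, beside matching sites of other tables and rows whose groups did not overlap, added after their values were seen.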

Additional observations from a re-analysis of the deposited data

Results flagged for a closer look

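*C8a* mRNA in *Gps2* LKO library 2, at 574.2 CPM, stood far from the other LKO libraries (509.1, 515.1 and 515.1), with a gap of 0.908 of the group's range. Of 16 groups of 4 libraries tested, 1 was so marked, and chance marks about 5 percent of groups. The library was still below every WT library.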

How the results depend on the processing

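Of 104 values for the mRNA of the members under the alternatives, 98 kept direction and call, 6 lost the call and 0 reversed. Between 7 and 8 members were called when a library was left out. For ChIP-seq rows the number called among the members moved more. Of 152 values for the called rows under the alternatives, 62 kept direction and call, 89 lost the call and 1 reversed. Under TMM scaling it was 1 for NCOR, 0 for PPARα in *Gps2* LKO, 1 for H3K27ac, 1 for GPS2 and 1 for PPARα in *Ncor* LKO, and 2 for NCOR and 3 for PPARα in *Pparα* KO liver. With filterByExpr it was 2 for PPARα in *Gps2* LKO, 1 for GPS2 in *Ncor* LKO and 0 for NCOR in *Pparα* KO. With DESeq2 it was 0 for PPARα in *Gps2* LKO, 1 for GPS2 in *Ncor* LKO and 0 for PPARα in *Pparα* KO, where *Cfb* -72 changed sign (0.0425, adjusted p = 0.966, from -1.59). With each PPARα WT library of the *Gps2* line as its own sample it was 17.

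Samples with the same replicate number did not deviate together in all pairs (r of 0.03 to 0.16 in RNA-seq, and 0.20 for H3K27ac and 0.25 for H3K4me3 in *Gps2* LKO with 2 numbers only), so the numbers were not taken as a pairing. A replicate block left 8 members called in RNA-seq and 3 for H3K27ac and 1 for H3K4me3 in *Gps2* LKO, 15 for PPARα in *Gps2* LKO with each library its own sample, 0 for H3K27ac and 10 for GPS2 in *Ncor* LKO, and 0 for NCOR and 0 for PPARα in *Pparα* KO. Without 1 library, the calls ranged from 0 to 8 for H3K27ac and 0 to 2 for H3K4me3 and PPARα in *Gps2* LKO, 0 to 6 for H3K27ac and 0 to 33 for GPS2 in *Ncor* LKO, 0 to 1 for NCOR and 0 to 14 for PPARα in *Pparα* KO, and 0 to 1 for the difference between *Ncor* and *Smrt* LKO (1 without *Smrt* WT library 2). A lone sample left in a group was assumed to vary like the others. The cause of these shifts was not tested.

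Between the WT of both lines 32 member rows were called, and 32 under TMM and 27 to 30 without 1 library. Calls over all rows moved too. For PPARα in *Gps2* LKO they were 2579, and 79 under TMM, 4 with DESeq2, 37826 with each library its own sample and 37246 with the block. For H3K27ac in *Gps2* LKO they were 668, and 382 under TMM, 1080 over all rows of the shared table and 2464 with the block. H3K4me3 had 209, and 32 over all rows of the shared table and 701 with the block. NCOR in *Gps2* LKO had 14, and 359 under TMM, 8 with filterByExpr, 76 with DESeq2 and 288 with the block. For GPS2 in *Ncor* LKO they were 19, and 1257 under TMM, 1700 with filterByExpr, 460 with DESeq2 and 10541 with the block. In the same line, PPARα had 169, and 1496, 75, 477 and 0 under these settings, and H3K27ac had 2145, and 3411 with DESeq2 and 1143 with the block. H3K27ac in *Smrt* LKO had 0, and 68 with DESeq2, and its difference from *Ncor* LKO had 293, and 1227 with DESeq2 and 69 with the block. For PPARα in *Pparα* KO they were 11119, and 1448 under TMM, 7357 with filterByExpr, 569 with DESeq2 and 0 with the block. GPS2 there had 76, and 42, 151, 12 and 0 under these settings, and NCOR 3042, and 606 with DESeq2 and 1972 with the block. Depth limits the GPS2 and Pol II comparisons, where most peaks of the members hold under 100 tags and no replicate exists.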
